A study of Mus musculus with 14 samples.

Results

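Ffar2, the gene for free fatty acid receptor 2, was followed across dark zone and light zone germinal centre (GC) B cells of 2 Syk genotypes. It is 1 gene of the 9969 in the deposited table of unique molecular identifier (UMI) counts. It was chosen by its measured zone pattern in these same libraries, so its levels and its differences between zones and genotypes are given as a description.

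FFAR2, also known as GPR43, is a G protein-coupled receptor of the cell surface that binds the short-chain fatty acids acetate, propionate and butyrate, which gut microbes release from dietary fibre. It couples to Gi proteins, which inhibit adenylyl cyclase, and to Gq proteins, which activate phospholipase C-beta. Its expression is best known in neutrophils, and it is also found on other leukocytes, including B cells, and in the gut epithelium.

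Cells of both zones were sorted from the popliteal lymph nodes of chimeric C57BL/6 mice whose cells were WT and SykY317F in equal parts. All mice received NP-KLH, a hapten-carrier immunogen, 14 days before harvest, and mice without immunization were not analysed here. Syk is the kinase that relays antigen receptor signals, and in SykY317F a tyrosine is replaced by phenylalanine. The dark zone (DZ) is where these B cells proliferate and hypermutate, and the light zone (LZ) is where they take up antigen and are selected with T cell help. The groups were WT DZ (n = 4), WT LZ (n = 4), SykY317F DZ (n = 3) and SykY317F LZ (n = 3). Both genotypes developed in chimeric hosts, and the labels do not state whether cells were pooled, whether each library is a different animal, or how old the mice were. The p-values therefore measure the spread between these libraries, which may be technical.

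Depth differed between groups, which bears on every SykY317F LZ value. Total UMIs per library ran from 149641 to 379125 in SykY317F LZ, against 381954 to 1767898 in the other groups. The yield was 9.37 to 15.8 UMIs for every 100 reads in SykY317F LZ and 15.6 in SykY317F DZ replicate 4, against 33.5 to 53.2 in the other libraries. Of the GC B cell markers, 15 of 16 had a row in the UMI table and none of these was at 0 in a group. Their summed level in CPM (UMI counts normalised to library total) was 10850 to 13958 in WT DZ and 8182 to 10478 in WT LZ. The WT zones thus did not overlap. The sum was 10098 to 11424 in SykY317F DZ and 9890 to 11458 in SykY317F LZ. Of the 15 markers, 2 were higher and 13 lower in LZ in WT, and 7 were higher and 8 lower in SykY317F. Over all tested genes, 48.3% were higher in LZ in WT and 46.7% in SykY317F.

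Ffar2 lies on the minus strand of chromosome 7, from 30818348 to 30823775 (GRCm38, the assembly of mm10). The gene annotation gives it 6 transcripts, no overlapping gene, and a coding sequence held in the last exon, from 30819124 to 30820113. The transcripts begin at several places. Counts from a protocol that tags transcript ends sum over these starts, so the values below cannot be divided among them. The upstream sequences are shown because they are the stretches from which the zone-dependent RNA could begin. RefSeq (GRCm38.p6) lists 4 promoter windows for Ffar2, and the 3 printed here do not overlap. Each gives the 250 bases before a start, 5′ to 3′ on the gene's strand, with motif matches in capitals.

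start at 30823775, upstream window chr7:30823776-30824025: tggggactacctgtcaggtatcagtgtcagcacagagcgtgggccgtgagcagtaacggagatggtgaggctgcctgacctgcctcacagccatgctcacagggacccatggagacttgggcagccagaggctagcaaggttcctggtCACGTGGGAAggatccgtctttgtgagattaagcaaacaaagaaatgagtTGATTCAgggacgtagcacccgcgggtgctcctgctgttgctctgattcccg

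start at 30821648, upstream window chr7:30821649-30821898: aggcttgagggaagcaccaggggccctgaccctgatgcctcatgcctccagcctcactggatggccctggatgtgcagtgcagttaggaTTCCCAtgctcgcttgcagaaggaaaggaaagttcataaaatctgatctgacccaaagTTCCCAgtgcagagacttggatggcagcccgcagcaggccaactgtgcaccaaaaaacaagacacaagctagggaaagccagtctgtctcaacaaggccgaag

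start at 30821139, upstream window chr7:30821140-30821389: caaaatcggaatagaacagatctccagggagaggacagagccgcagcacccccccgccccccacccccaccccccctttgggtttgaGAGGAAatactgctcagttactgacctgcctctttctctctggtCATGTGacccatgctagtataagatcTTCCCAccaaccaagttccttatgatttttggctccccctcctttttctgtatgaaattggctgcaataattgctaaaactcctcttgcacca

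Both strands were searched for the E-box CACGTG, the E-box CATGTG, the E-box CAGCTG, the ETS core GAGGAA, the AP-1 motif TGANTCA, the RBPJ core TGGGAA, the octamer ATGCAAAT, the TATA motif TATAAA and the NF-kB motif. The window of the first start held CACGTG, which overlaps a TGGGAA, and 1 AP-1 match. The window of the second start held 2 copies of the RBPJ core on the opposite strand, written TTCCCA. The window of the third start held the ETS core GAGGAA, the E-box CATGTG and 1 copy of TTCCCA. Of 32851 windows of the same length, 6.02% held CACGTG, 12.3% CATGTG, 23.3% GAGGAA, 6.75% the AP-1 motif and 21.6% the RBPJ core. The octamer, the E-box CAGCTG, the TATA motif and the NF-kB motif, held by 1.60%, 13.0%, 12.4% and 7.25% of windows, had no match in these letters. A match is a description of the sequence and not a bound site.

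Ffar2 RNA was low in DZ libraries, higher in LZ libraries, and highest in SykY317F LZ libraries. The WT means were 15.3 ± 7.87 CPM in DZ and 46.1 ± 11.7 CPM in LZ (SD, n = 4 each). The SykY317F means were 9.74 ± 1.29 CPM in DZ and 85.7 ± 20.5 CPM in LZ (n = 3 each). CPM were computed from UMIs with library totals corrected by TMM scaling. In bulk samples, a larger share of cells with the transcript and more transcript per cell cannot be told apart.

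In WT DZ, Ffar2 stood at 23.3 CPM in replicate 2, 6.71 in replicate 3, 20.5 in replicate 4 and 10.7 in replicate 5, from 18, 9, 23 and 17 UMIs. In WT LZ it stood at 61.4 CPM in replicate 1, 48.4 in replicate 2, 34.5 in replicate 3 and 39.8 in replicate 5, from 56, 49, 18 and 69 UMIs. The lowest WT LZ library lay above the highest WT DZ library, and all 16 pairs of a WT LZ and a WT DZ library had the higher level in LZ.

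In SykY317F DZ, Ffar2 stood at 10.2 CPM in replicate 1, 10.8 in replicate 2 and 8.29 in replicate 4, from 14, 16 and 3 UMIs. In SykY317F LZ it stood at 65.7 CPM in replicate 1, 84.7 in replicate 2 and 107 in replicate 4, from 22, 15 and 17 UMIs. The zones did not overlap in this genotype either, with the higher level in LZ in all 9 pairs. Every SykY317F LZ library also lay above every WT LZ library, whereas the DZ libraries of the 2 genotypes overlapped.

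The precision of these levels is set by few molecules. The exact Poisson 95% interval of the library with 3 UMIs, SykY317F DZ replicate 4, ran from 1.71 to 24.2 CPM, which spans the whole WT DZ range up to 23.3 CPM. In SykY317F LZ the intervals ran from 41.2 to 99.4 CPM in replicate 1, from 47.4 to 140 in replicate 2 and from 62.1 to 171 in replicate 4. The lower bounds of replicates 1 and 2 lie within the range of the WT LZ levels, 34.5 to 61.4 CPM. Counting error alone would give an SD of 21.2 CPM in SykY317F LZ, about that observed (20.5), and 3.88 CPM in WT DZ, below that observed (7.87). A count of 3 UMIs was worth 8.95 to 18.8 CPM in SykY317F LZ and 1.73 to 8.29 CPM elsewhere. These intervals cover counting error only.

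**Figure D1:**
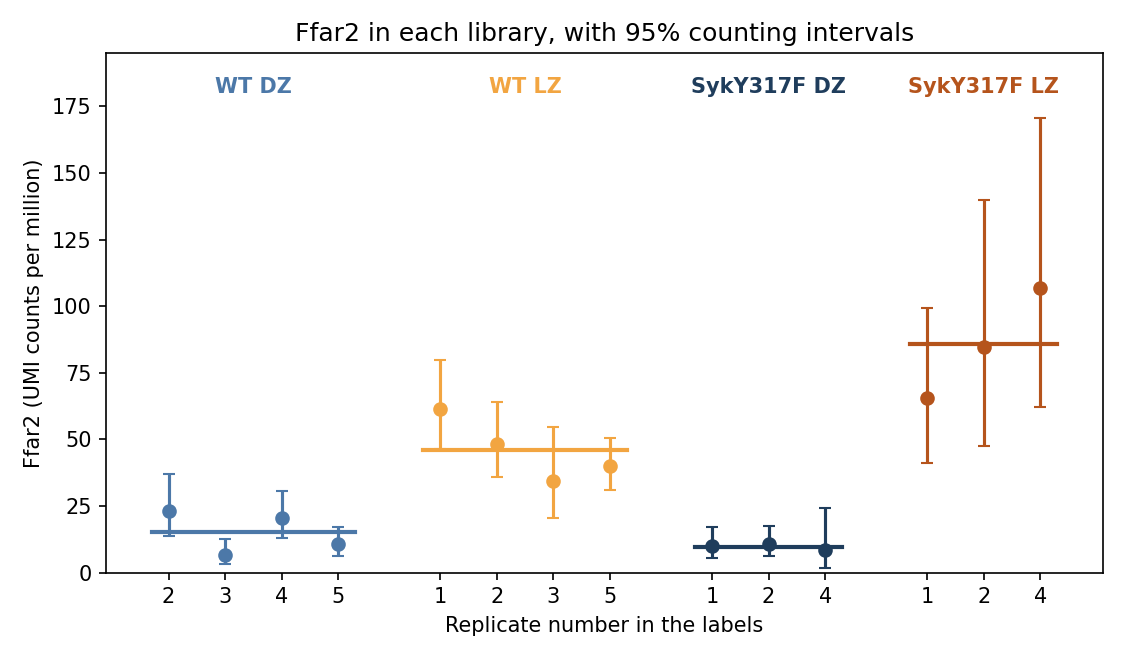
Ffar2 level in each of the 14 libraries (vertical axis, CPM from UMIs; horizontal axis, replicate number). Points are libraries, bars are exact Poisson 95% counting intervals and horizontal lines are group means, which stand at 15.3, 46.1, 9.74 and 85.7 CPM from left to right.

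From DZ to LZ, Ffar2 differed by 1.64 ± 0.36 (log2 fold change with SE) in WT and 3.05 ± 0.46 in SykY317F, from the edgeR fit of all 14 libraries. On the linear scale these are 3.11-fold and 8.27-fold higher in LZ. Summed over libraries, the WT zones held 192 and 67 Ffar2 UMIs, a depth-corrected LZ to DZ ratio of 3.31 (exact binomial 95% interval 2.50 to 4.44). The SykY317F zones held 54 and 33 UMIs, a ratio of 7.86 (5.01 to 12.5). These intervals too cover counting error and not the spread between libraries.

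Among all 7999 genes tested, 29 had a larger LZ to DZ fold change than Ffar2 in WT and 3 had a larger one in SykY317F. The zone difference of SykY317F exceeded that of WT by 1.41 ± 0.58 on the log2 scale, and 192 of 7999 genes had a larger value. Since Ffar2 was chosen on this pattern, nothing is read from these ranks. For scale, 15 genes (0.188%) passed an adjusted p of 0.05 between the WT zones and 3 (0.0375%) between the SykY317F zones, by edgeR's quasi-likelihood test with Benjamini-Hochberg adjustment.

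The values of all 4 groups were in view when the gene was chosen, so its genotype differences are likewise a description. The edgeR test planned for them is not independent of that choice, and it was passed neither in LZ (adjusted p = 0.460) nor in DZ (adjusted p = 0.9999). Ffar2 was higher in SykY317F LZ than in WT LZ by 0.86 ± 0.38 on the log2 scale, a fitted 1.81-fold difference. Of the 7999 tested genes, 536 (6.70%) showed a larger value. The UMI sums gave a ratio of 1.75 (exact binomial 95% interval 1.27 to 2.38), and the SykY317F LZ level was the higher one in 12 of 12 pairs of libraries. In DZ the difference was -0.55 ± 0.43, with a ratio of UMI sums of 0.737 (0.471 to 1.13) and the higher level in SykY317F in 4 of 12 pairs. The share of all genes passing the test was 0% in each genotype contrast. That is 0 of 7999 genes by edgeR, with 785 genes in LZ and 305 in DZ under 0.05 before adjustment. The Wald test of DESeq2 called 37 genes in LZ and 2 in DZ, and limma voom called 0 in each. By edgeR on read counts, 54 genes were called in LZ and 0 in DZ.

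Ordered by level, the groups ran from SykY317F DZ through WT DZ and WT LZ to SykY317F LZ. The neighbours SykY317F DZ and WT DZ overlapped. WT DZ and WT LZ did not overlap, nor did WT LZ and SykY317F LZ by UMIs. The authors' deposited table gives log2 fold changes of 1.64 between the WT zones and 3.06 between the SykY317F zones. For the genotypes the authors' deposited table gives 0.88 in LZ and -0.54 in DZ.

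Read counts, which keep the PCR copies that UMIs remove, gave the same order of group means. Ffar2 had 43, 14, 56 and 51 reads in WT DZ replicates 2, 3, 4 and 5, and 187, 161, 50 and 182 reads in WT LZ replicates 1, 2, 3 and 5. It had 43, 44 and 16 reads in SykY317F DZ replicates 1, 2 and 4, and 112, 236 and 169 reads in SykY317F LZ replicates 1, 2 and 4. On the CPM scale of read counts, the WT means were 17.2 ± 9.21 in DZ and 51.8 ± 10.7 in LZ (SD, n = 4 each). The SykY317F means were 10.4 ± 3.51 in DZ and 87.9 ± 35.8 in LZ (n = 3 each).

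The zones remained apart in both genotypes by reads, but the LZ groups did not. SykY317F LZ replicate 1 stood at 46.7 CPM by reads, inside the WT LZ range of 39.5 to 64.8, and the SykY317F LZ value was the higher one in 9 of 12 pairs. These read values were divided by plain library totals, whereas the UMI values used totals corrected by TMM scaling. The separation of the 2 LZ groups seen with UMIs was thus absent where unit and scaling both differed. The part of each was not tested. Each Ffar2 UMI was read 15.7 times in SykY317F LZ replicate 2, 9.94 times in replicate 4 and 5.09 times in replicate 1, against 2.64 to 3.34 times in WT LZ. The averages over all genes in those SykY317F libraries were 10.5, 10.7 and 6.32 reads per UMI.

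**Figure D2:**
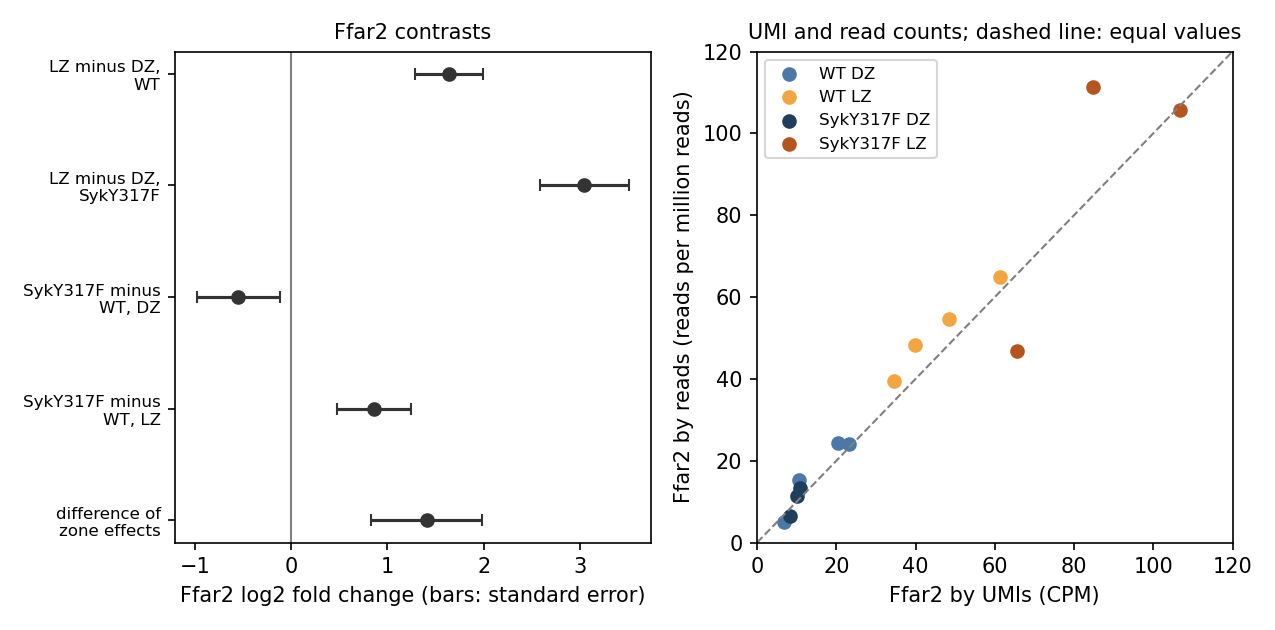
Left, log2 fold changes of Ffar2 in the edgeR fit (horizontal axis) with standard errors as bars for the 4 contrasts and for the difference of the zone effects; the largest is 3.05, between the SykY317F zones. Right, Ffar2 in each library by read CPM (vertical axis) against UMI CPM (horizontal axis), with 1 SykY317F LZ point at 46.7 read CPM among the WT LZ points.

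Of the 9 listed receptors for free fatty acids and hydroxycarboxylic acids, Ffar2 was the only one with a row in the UMI table. Ffar1 and Ffar3 had rows among the read counts. Ffar3, the receptor gene nearest in ligands to Ffar2, had 39 reads in all: 18 in WT DZ, 14 in WT LZ, 7 in SykY317F DZ and 0 in SykY317F LZ. Ffar1, a receptor for longer fatty acids, had 88 reads, of which 63 were in SykY317F LZ replicate 2 alone and 13 in WT LZ replicate 2. Ffar2 had 1364 reads. Ffar3 and Ffar1 lie 30.6 and 33.6 kb from Ffar2, on the same strand.

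Around the gene, 33 annotated genes lay within 200 kb, 9 of which had a row in the UMI table and 6 of which were tested: Cox6b1, Rbm42, Haus5, Tmem147, Cd22 and Usf2. Their log2 differences between zones ran from -0.72 to 0.46 in WT and from -0.29 to 0.62 in SykY317F, below the 1.64 and 3.05 of Ffar2. Cd22, the inhibitory co-receptor of B cells, lies 41.6 kb away and had log2 differences of 0.34 ± 0.21 (SE) in WT and 0.62 ± 0.24 in SykY317F.

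Genes related to FFAR2, to its ligands or to its signalling were read from 6 further lists. They covered other metabolite receptors, short-chain fatty acid transport and use, and histone deacetylases. The others were G protein subunits, receptor kinases with arrestins, and effectors of Gi and Gq. Of the 73 tested members of the 6 lists, 0 passed edgeR's quasi-likelihood test in any of the 4 contrasts. Before adjustment, those with p under 0.05 numbered 7 between the WT zones, 5 between the SykY317F zones, 8 between genotypes in DZ and 3 in LZ. Over all 7999 genes they numbered 678 (8.48%), 821 (10.3%), 305 (3.81%) and 785 (9.81%) in the same order. Between the WT zones Plcb2 passed the Wald test of DESeq2, which called 84 genes over all. Plcb2, Gnb4 and Hdac9 passed limma voom there, which called 292 genes over all. In the other 3 contrasts 0 of the 73 passed by either tool. Over all genes, DESeq2 called 39 between the SykY317F zones, 2 between genotypes in DZ and 37 in LZ. The limma voom calls were 2, 0 and 0 in the same order. For comparison, 48.3% of all tested genes were higher in LZ in WT and 46.7% in SykY317F, with median log2 differences of -0.02 and -0.04.

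Among the 15 tested G protein subunits, 5 were higher and 10 lower in LZ in WT (median log2 difference -0.36), and 6 were higher and 9 lower in SykY317F (median -0.11). Gnb4, a beta subunit, had log2 differences of -1.24 ± 0.41 (SE) in WT and 0.84 ± 0.55 in SykY317F. Gng10, a gamma subunit, had -0.37 ± 0.23 and -0.68 ± 0.28. Gnaz, an inhibitory alpha subunit, had -0.63 ± 0.36 and -0.35 ± 0.52, and Gng12, another gamma subunit, -0.68 ± 0.41 and 0.72 ± 0.55. Gnai2, the inhibitory alpha subunit named here after its values were seen, averaged 2685 ± 414 CPM (SD, n = 4) in WT DZ and 2679 ± 886 CPM (n = 3) in SykY317F LZ, with log2 zone differences of -0.13 ± 0.24 and 0.08 ± 0.28.

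Of the 21 tested effectors of Gi and Gq, 13 were higher and 8 lower in LZ in each genotype (median log2 differences 0.21 in WT and 0.05 in SykY317F). Plcb2, a phospholipase C-beta that Gq activates, averaged 19.7 ± 5.52 CPM in DZ and 45.2 ± 10.8 CPM in LZ of WT (SD, n = 4 each). In SykY317F it averaged 36.6 ± 11.2 CPM in DZ and 75.6 ± 34.4 CPM in LZ (n = 3 each). The log2 zone differences were 1.19 ± 0.32 in WT and 0.97 ± 0.39 in SykY317F, and neither passed edgeR's test (adjusted p = 0.155 and 0.404). The WT zones did not overlap for Plcb2, with a highest DZ level of 24.9 CPM and a lowest LZ level of 38.7 CPM. The SykY317F zones did overlap, since the highest DZ level was 47.1 CPM and the lowest LZ level 45.2 CPM. Plcb3, of the same family, had log2 differences of 0.62 ± 0.46 and 1.19 ± 0.58. Itpr1, the calcium channel opened by the product of phospholipase C, had 0.67 ± 0.33 and -0.24 ± 0.48. Pik3r5, a regulatory subunit of the PI3 kinase that G proteins activate, had 1.05 ± 0.59 and -2.13 ± 1.001. The SykY317F value of Pik3r5 came from 46 UMIs in DZ and 2 in LZ.

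Receptor kinases and arrestins, which silence activated receptors, had 5 tested members, of which 4 were higher and 1 lower in LZ in WT (median 0.45) and 3 higher and 2 lower in SykY317F (median 0.09). Arrb2 had log2 differences of 0.45 ± 0.22 (SE) in WT and -0.01 ± 0.28 in SykY317F. Its paralog Arrb1 had 0.92 ± 0.56 and -0.36 ± 0.80. Grk6, a receptor kinase, had 0.13 ± 0.20 and 0.37 ± 0.23, and Adrbk2, of the same family, had 0.84 ± 0.82 and 0.72 ± 1.32. In SykY317F LZ, Arrb1 had 6 UMIs in all and Adrbk2 had 4.

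Of the other metabolite and proton-sensing receptors, 6 were tested. In LZ 4 were higher and 2 lower in WT (median 0.47), and 1 higher and 5 lower in SykY317F (median -1.27). The SykY317F LZ libraries together held 3 UMIs each of Gpr174 and Ptger4, and 9 of P2ry10. They held 12 each of Gpr132 and Gpr183, and 111 of Gpr18. Gpr132, a receptor for lactate and oxidized fatty acids, had log2 differences of 1.32 ± 0.48 (SE) in WT and -1.45 ± 0.69 in SykY317F. Its WT means were 17.5 ± 8.21 CPM in DZ and 42.7 ± 24.8 in LZ (SD, n = 4 each), and its SykY317F means 51.0 ± 28.9 in DZ and 20.8 ± 10.3 in LZ (n = 3 each). The groups overlapped in both genotypes. Gpr183, the oxysterol receptor that guides B cells, had log2 differences of 1.05 ± 0.68 and 0.75 ± 0.81. Ptger4, a prostaglandin E2 receptor, had 0.74 ± 0.68 and -1.09 ± 1.10, and P2ry10, a receptor for lysophospholipids, -1.04 ± 1.17 and -1.82 ± 1.71.

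Of 15 tested genes that transport or use short-chain fatty acids, 6 were higher and 9 lower in LZ in each genotype, with medians of -0.05 in WT and -0.04 in SykY317F. Acat2, which joins acetyl-CoA units, had log2 differences of -0.86 ± 0.31 (SE) in WT and -1.20 ± 0.48 in SykY317F (edgeR adjusted p = 0.373 and 0.401). Pcca, a subunit of the propionyl-CoA carboxylase that uses propionate, had -0.94 ± 0.42 and -0.22 ± 0.61. Bsg, the partner chain of the monocarboxylate transporters, had 0.48 ± 0.22 and -0.04 ± 0.27. Acadsb, a dehydrogenase of short branched acyl-CoA, had 1.32 ± 0.68 and 1.01 ± 0.80.

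Histone deacetylases, several of which butyrate inhibits inside cells, had 11 tested members. Of these, 6 were higher and 5 lower in LZ in each genotype (medians 0.21 and 0.15). Hdac9 had a log2 difference of -1.59 ± 0.72 (SE) in WT and -0.12 ± 1.35 in SykY317F. Hdac5 had 0.63 ± 0.31 and -0.46 ± 0.43. Hdac8 had -0.33 ± 0.36 and -1.26 ± 0.65, and Hdac10 had 0.32 ± 0.23 and 0.33 ± 0.28. In SykY317F LZ, Hdac9 had 3 UMIs in all and Hdac8 had 5.

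Known zone markers gave a scale for these differences. Of 14 tested, 2 passed edgeR's test in WT, Cd72 higher and Gcsam lower in LZ, against 15 (0.188%) of all 7999 genes. In SykY317F 0 passed, against 3 (0.0375%) of all genes. Before adjustment, 9 were under 0.05 in WT and 7 in SykY317F, against 678 (8.48%) and 821 (10.3%) of all genes. By the Wald test of DESeq2 1 marker, Cd83, was called between the SykY317F zones, and by limma voom 0. Over all genes these tools called 39 and 2 there. In WT 10 were higher and 4 lower in LZ (median log2 difference 0.56), and in SykY317F 9 were higher and 5 lower (median 0.29). Cd72, an inhibitory co-receptor of B cells whose locus overlaps Tesk1, rose from DZ to LZ by 1.37 ± 0.24 on the log2 scale (SE) in WT (adjusted p = 0.0115) and had 0.70 ± 0.27 in SykY317F. Without WT LZ replicate 2 or WT DZ replicate 3, neither Cd72 nor Gcsam passed, and 1 and 6 genes passed over all.

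Gcsam, a GC B cell signalling adaptor, fell by 2.09 ± 0.36 on the log2 scale in WT (edgeR adjusted p = 0.0148) and had -1.28 ± 0.49 in SykY317F. Cd83, a surface marker of LZ cells named here after its values were seen, had 0.94 ± 0.24 and 1.06 ± 0.28. Cd40, which receives signals from helper T cells, had 0.94 ± 0.20 and 0.57 ± 0.25, and Ccr6, a chemokine receptor, 1.65 ± 0.38 and 1.09 ± 0.45. Cxcr4, a DZ marker also named after its values were seen, had -0.62 ± 0.30 in WT but 0.23 ± 0.35 in SykY317F. It averaged 276 ± 53.7 CPM in SykY317F DZ and 325 ± 139 CPM in SykY317F LZ (SD, n = 3 each), so it was not lower in LZ there. Ffar2, at 1.64 in WT, lay between the values of Cd72 and Ccr6, while its 3.05 in SykY317F lay above those of the named markers.

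**Figure D3:**
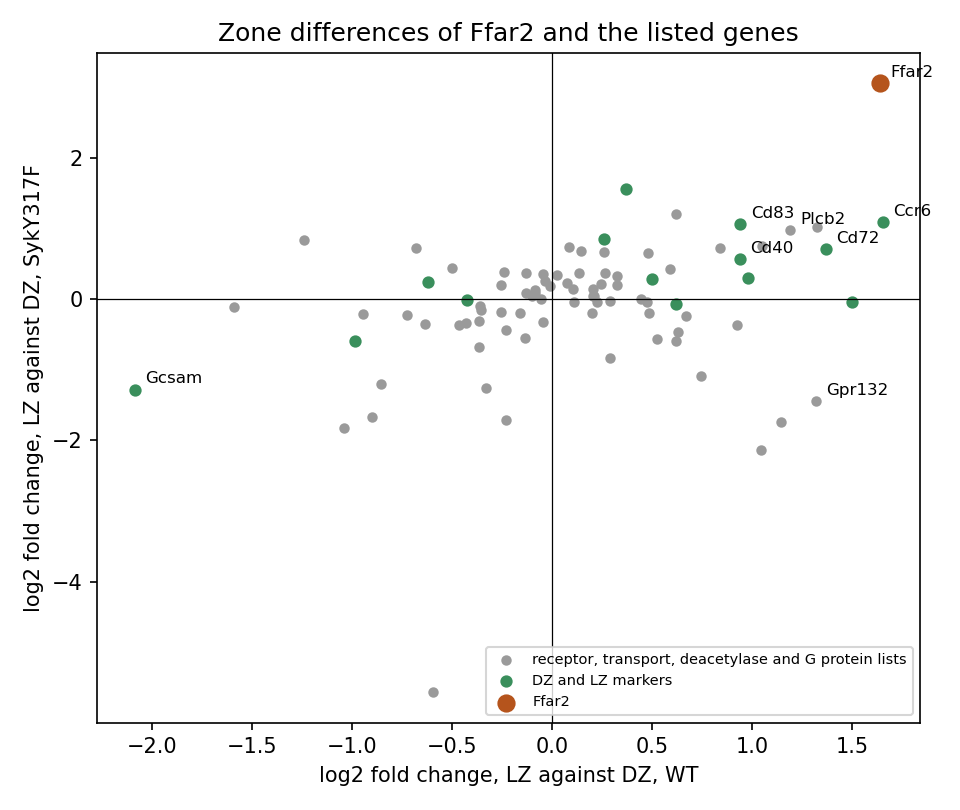
Log2 fold change from DZ to LZ in WT (horizontal axis) and in SykY317F (vertical axis) for Ffar2, the listed receptor, transport, deacetylase and G protein genes, and the zone markers; each point is 1 tested gene. Ffar2 stands at 1.64 and 3.05, and Gcsam at -2.09 and -1.28.

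Because Ffar2 is strongly expressed by some myeloid cells, markers of other cell types were read in the same libraries. Of 15 neutrophil markers, 3 had a row in the UMI table (S100a8, S100a9 and Il1r2). All of them were at 0 UMIs in every SykY317F LZ library, where 3 UMIs were worth 8.95 to 18.8 CPM. Their summed level was 0 to 2.67 CPM in WT DZ (median 1.12), 0 to 4.39 in WT LZ (median 3.50) and 2.18 to 26.2 in SykY317F DZ. Of 7 eosinophil markers, 2 had a row, with summed levels of 2.98 to 12.5 CPM in SykY317F LZ (median 5.65), 0 to 17.5 in SykY317F DZ (median 1.45), 1.92 to 4.94 in WT LZ and 2.59 to 6.28 in WT DZ. Prg2 was at 0 in SykY317F LZ. Of 16 monocyte and macrophage markers, 13 had a row. Their summed level was 56.7 to 147 CPM in SykY317F LZ, below the 277 to 581 CPM in SykY317F DZ, and was 61.4 to 184 in WT LZ and 97.1 to 436 in WT DZ. Ccr2 was at 0 in SykY317F LZ. The part of these myeloid cells in the Ffar2 differences was not tested.

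The summed levels of other lists moved in the same direction as Ffar2 in part. The 12 naive and memory B cell markers, all with a row, summed to 895 to 1301 CPM in WT DZ, 1205 to 2203 in WT LZ, 1385 to 2397 in SykY317F DZ and 2110 to 2540 in SykY317F LZ. This list includes Ccr6. Of its 11 tested members, 9 were higher and 2 lower in LZ in WT (median log2 difference 0.84). In SykY317F 4 were higher and 7 lower in LZ (median -0.26), so most members did not follow Ffar2 there. T cell markers, 10 of 13 with a row, summed to 22.4 to 63.2 CPM in WT DZ and 55.7 to 217 in WT LZ. They summed to 98.0 to 276 CPM in SykY317F DZ and 47.8 to 243 in SykY317F LZ, where Icos was at 0. Dendritic cell markers, 4 of 9 with a row, summed to 86.5 to 114 CPM in WT DZ, 91.9 to 121 in WT LZ, 57.8 to 141 in SykY317F DZ and 25.1 to 107 in SykY317F LZ, where Itgax was at 0. The part of the naive and memory B cell and T cell markers in the Ffar2 differences was not tested.

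Natural killer and innate lymphoid cell markers, 3 of 10 with a row, summed to 3.56 to 5.18 CPM in WT DZ, 8.66 to 28.7 in WT LZ, 5.81 to 26.2 in SykY317F DZ and 0 to 50.8 in SykY317F LZ. Stromal markers, 5 of 12 with a row, summed to 38.8 to 92.5 CPM in WT DZ, 90.2 to 131 in WT LZ, 113 to 149 in SykY317F DZ and 59.7 to 245 in SykY317F LZ. Sparc and Igfbp4 were at 0 in SykY317F LZ. Plasma cell markers, 5 of 7 with a row, summed to 270 to 1228 CPM in WT DZ, 221 to 575 in WT LZ, 442 to 922 in SykY317F DZ and 310 to 715 in SykY317F LZ, where Sdc1 was at 0. Between the WT zones the stromal ranges overlap slightly and the innate lymphoid ranges are apart, with LZ above DZ as for Ffar2, and their part in the WT difference was not tested.

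The genes whose levels ran most like Ffar2 over the 14 libraries were sought by Pearson correlation of log2 CPM (prior count 2). The 10 most similar were Arid3b (r = 0.871), Slc2a6 (0.861), Rhof (0.857), S1pr3 (0.856), Swap70 (0.853), Fmnl3 (0.850), Stat3 (0.848), Rec8 (0.846), Zfhx2 (0.844) and Cd3eap (0.844). Of 7998 other tested genes, 31 (0.388%) reached r of 0.8, and the median was -0.10. The libraries share genotype, zone and depth differences. With the group means removed, the correlations of these 10 genes with Ffar2 fell to between 0.19 (Rec8) and 0.61 (Stat3). By Spearman correlation, 4 of the 10 remained among the 10 highest.

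These genes are a mixed set. Arid3b encodes a DNA-binding protein, Slc2a6 a member of the glucose transporter family, S1pr3 a sphingosine 1-phosphate receptor and Stat3 a transcription factor downstream of cytokine receptors. Rhof, Swap70 and Fmnl3 encode proteins that act on the actin cytoskeleton. Rec8 encodes a meiotic cohesin, Zfhx2 a homeobox protein and Cd3eap a subunit of RNA polymerase I. The loci of Rhof, Stat3 and Cd3eap overlap those of Tmem120b, Stat5a and Ercc1, and whether counting used strand is not given in the sources used here, so these values are uncertain.

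The similar genes differed less between zones than Ffar2, apart from Rec8. S1pr3 averaged 51.8 ± 10.6 CPM in DZ and 104.5 ± 7.21 in LZ of WT (SD, n = 4 each), and 35.2 ± 12.6 in DZ and 110.7 ± 50.9 in LZ of SykY317F (n = 3 each). Its log2 zone differences were 1.02 ± 0.27 (SE) in WT and 1.55 ± 0.35 in SykY317F. Arid3b stood at 170 ± 17.1 CPM in WT DZ, 276 ± 44.6 in WT LZ, 145 ± 34.8 in SykY317F DZ and 314 ± 62.2 in SykY317F LZ, with differences of 0.70 ± 0.21 and 1.11 ± 0.25. Stat3 had differences of 0.68 ± 0.21 and 0.57 ± 0.26, the larger one in WT. Rec8 had 2.49 ± 0.72 and 3.96 ± 0.91, from 11 UMIs in all WT DZ, 49 in WT LZ, 7 in SykY317F DZ and 20 in SykY317F LZ libraries. Since these genes were picked for their likeness to Ffar2 over the same libraries, their zone differences are a description.

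**Figure D4:**
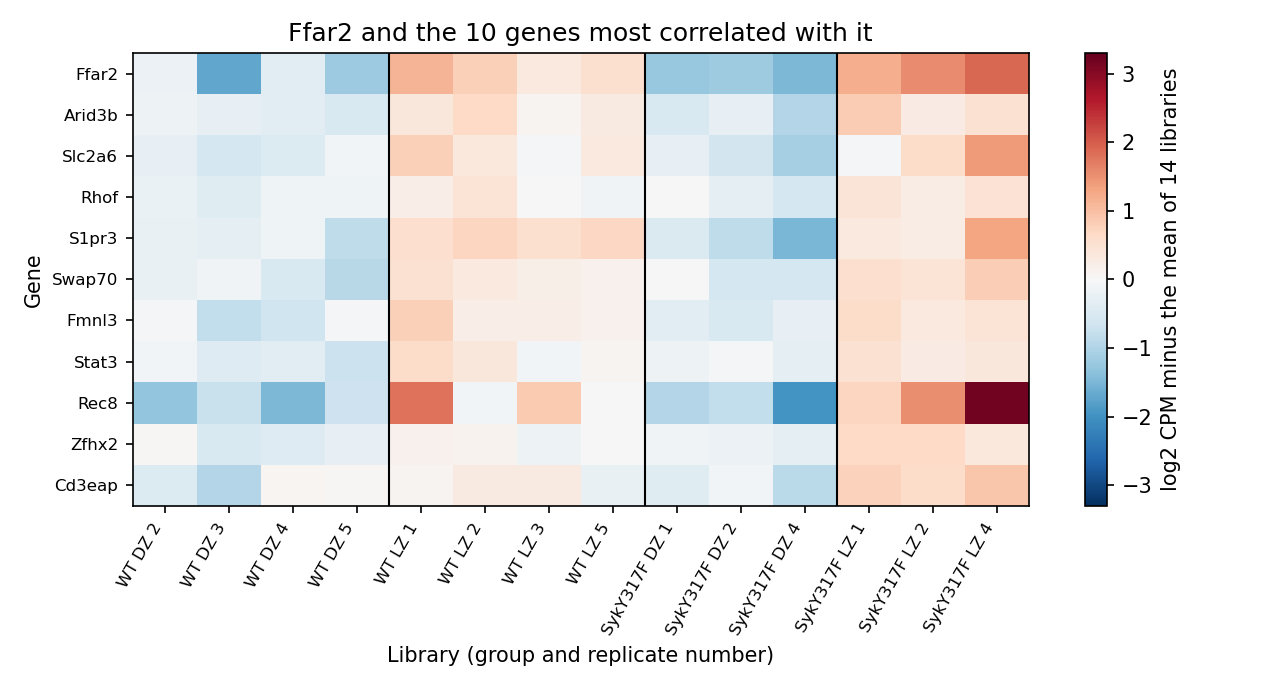
Log2 CPM of Ffar2 and the 10 genes with the highest Pearson correlation with it (rows), as the difference from each gene's mean over 14 libraries (colour, red higher and blue lower); columns are libraries by group and replicate number. LZ columns are mostly redder than DZ columns, but not for every gene. Cd3eap had a log2 CPM of 5.17 in WT DZ replicate 4 and 4.87 in WT LZ replicate 5. The genes are ordered from r = 0.871 (Arid3b) to 0.844 (Cd3eap).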

How the data were processed

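RNA of sorted GC B cells was captured on oligo(dT) beads and sequenced by a modified MARS-seq, per the labels. Build mm10 and the tools STAR 2.4.2a, cutadapt, HTSeq, DESeq and DESeq2 come from the submitters' processing notes, which give neither role nor order. How reads were assigned to genes is not given in the sources used here. Deposited values are whole-number UMI counts (9969 genes) and read counts (11914 genes), both unnormalised. UMI counting removes PCR copies, which read counts keep. The authors also deposited a normalised signal (UMI counts over a size factor), regularised log2 values and log2 fold changes, and p-values and adjusted p-values of their comparisons. Of these, only log2 fold changes of Ffar2 are quoted as the authors' own.

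UMI counts of all 14 libraries were filtered by filterByExpr (7999 genes, 99.3% of UMIs), scaled by TMM and fitted to 4 groups in edgeR 4.0.16 (quasi-likelihood, robust, R 4.3.3; biological coefficient of variation 32.3%). Groups come from the genotype and zone labels. Within each contrast, p-values were adjusted by Benjamini-Hochberg over the 7999 genes, and 0.05 was the threshold. Alternatives used DESeq2 1.42.0, limma 3.58.1 voom with sample quality weights, other scalings and filters, both groups alone, read counts, a replicate block and left-out libraries. The steps were tested on simulated data. Ffar2, the gene lists and the marker lists were chosen with earlier results of these data known. Named genes are up to 4 per list with the smallest p in either zone contrast, the 10 with the highest correlation with Ffar2 and the tested genes within 200 kb. Gnai2, Cd83, Cxcr4 and genes called by another tool alone were named after their values were seen. The genotype test of Ffar2 is not independent of its choice, since those values were in view. Gene positions are from GENCODE vM21 and promoter sequences from RefSeq. Protein sequences were not used here.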

Additional observations from a re-analysis of the deposited data

Results flagged for a closer look

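Ffar1, a neighbouring fatty acid receptor gene that was not analysed by UMIs, had 63 reads in SykY317F LZ replicate 2 and 0 reads in the other 2 SykY317F LZ libraries. WT libraries had 0 to 13 Ffar1 reads each and SykY317F DZ libraries 0 to 3. The value was picked out because it lies in the read counts, outside the main measurement, and above the level in the WT libraries. Reads keep PCR copies, so the number of molecules behind it is unknown, and the cause was not tested.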

How the results depend on the processing

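Ffar2 kept its direction in each contrast under all 24 alternatives run (23 for the difference of the zone effects). The gene was chosen on its zone pattern and its zones did not overlap, so leaving out 1 library could hardly reverse the zone direction. Some alternatives left out a library outside the contrast, as with 1.64 between the WT zones without SykY317F DZ replicate 1. No support is drawn from this count. The Ffar2 log2 difference between the WT zones ran from 1.38 (without WT DZ replicate 3) to 1.89 (limma voom). Between the SykY317F zones it ran from 2.69 to 3.21. The 2.69 came without both libraries with the fewest UMIs, which leaves 1 SykY317F LZ library that is assumed to vary like the other groups. The excess of the SykY317F zone difference ran from 1.03 to 1.67, the lower value again without those libraries. The genotype difference in LZ ran from 0.40 to 1.02 and that in DZ from -0.86 to -0.20, with adjusted p of 0.350 to 0.898 and 0.874 to 1.

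Counts of the listed genes past the threshold between the WT zones, 2 in the main analysis, were 1 with library size scaling, 7 by DESeq2's Wald test, 0 with both groups alone, 10 by limma voom and 0 with read counts, and 0 to 3 when 1 library was left out. They fell to 1 without WT LZ replicate 1 or WT DZ replicate 4, where 7 and 11 genes were called over all. They fell to 0 without WT LZ replicate 2 or WT DZ replicate 3, where 1 and 6 were called over all. They were 3 without WT DZ replicate 2, WT DZ replicate 5 or WT LZ replicate 3, with 16, 14 and 26 over all. With library size scaling 11 genes were called over all, and with both groups alone 6. By DESeq2's Wald test 1 listed gene was called between the SykY317F zones (Cd83) and 1 between genotypes in LZ (Cxcr4, higher in SykY317F). Over all genes, the 15 calls between the WT zones became 84 by DESeq2 and 292 by limma voom, and the 3 between the SykY317F zones became 39 and 2. On read counts they became 0 and 20, and the 0 between genotypes in LZ became 54. The cause of these changes was not tested.

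The labels do not say what a shared replicate number means, and not every same-numbered pair deviated together. Deviations of same-numbered libraries from their group means correlated at 0.15, 0.08 and -0.56 between the WT zones and at 0.13, 0.21 and -0.07 between the SykY317F zones, between genotypes at -0.02 and -0.17 in DZ and at 0.18 and 0.18 in LZ, and between WT LZ and SykY317F DZ at 0.31 and 0.29. Within a genotype, 3 of 6 libraries correlated best with their own number in each case. With the replicate block, the Ffar2 differences were 1.76 and 3.02 between the zones of WT and SykY317F, -0.86 between genotypes in DZ, 0.40 between genotypes in LZ (0.86 without the block), and 1.25 for how far the zone effects differ. The block left 2 listed genes called between the WT zones (Cd72 and Ccr6), 14 genes over all there and 1 between the SykY317F zones. Depth limits the SykY317F LZ values most, where 3 UMIs were worth up to 18.8 CPM.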
